A study of Gallus gallus with 9 samples.

Results

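The 6 genes of the early gastrula described here, 3 T-box transcription factors (TBXT, TBX6 and EOMES) and 3 genes of the gastrula organizer (GSC, CHRD and ADMP), were followed through the withdrawal and return of basic fibroblast growth factor (bFGF) in cultured chicken primordial germ cells (PGCs). Every probe set of the array whose single annotated symbol is one of these names was taken, which gave 6 probe sets, 1 for each of the 6 genes, out of 13009 genes and 38535 probe sets on the array. The genes were picked because earlier results on the same arrays had shown how several of them moved on withdrawal and replacement, so their values are a description and carry no p-value, also in the net comparison, which is the sum of those changes. PGCs were grown from pooled blood of mixed-sex Korean Oge embryos at embryonic day 2.5, without feeder cells, in medium that also held fetal bovine and chicken serum. There were 3 groups of 3 arrays each. RAW cells were taken at 0 h in 10 ng/ml human bFGF, -bFGF cells after 24 h without it, and +bFGF cells after 24 h without it and a further 24 h with it back at the same dose. The labels name no genetic modification of the cells, and serum was present in all groups. The methods state that the experiments were repeated 3 times but not whether replicates came from separate derivations, so the p-values rest on the spread among these arrays only.

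T-box factors bind DNA through a shared domain and pattern the mesoderm and endoderm of the vertebrate gastrula. TBXT (brachyury) marks the primitive streak and notochord and is a classical FGF target in the frog embryo, TBX6 acts in paraxial mesoderm, and EOMES acts in mesoderm and endoderm. The organizer is the region of the gastrula that patterns its neighbours: GSC is a homeobox repressor expressed there, CHRD is a secreted antagonist of bone morphogenetic proteins (BMPs), and ADMP is a BMP-like ligand made by the organizer itself. The probe set named TBX6 belongs to a chicken gene that the RefSeq gene table lists under the synonym Tbx6L as well. Which of the related chicken genes this probe set reads was not checked, and its values are given under the annotated name TBX6.

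Values are MAS5 intensities, linear units of probe set brightness that were scaled by the authors to a common level on each array. Array medians lay between 71.6 and 82.6, and the 95th percentile of 683 probe sets for viral sequences, used here as background, lay between 29.4 and 39.4. All 6 probe sets were above that background on all 9 arrays, but by unequal margins. GSC stood at 1.48 to 3.52 times and CHRD at 1.70 to 4.29 times the background, whereas the lowest ratio was 3.24 for TBXT, 4.04 for TBX6, 9.76 for ADMP and 15.6 for EOMES. All 6 passed the filter on low values, a mean log2 intensity at or above the median of all probe sets. GSC passed it only through its RAW arrays. Its mean log2 intensity was 6.666 in RAW, 6.176 in -bFGF and 6.144 in +bFGF cells, against a limit of 6.178. Germ cell markers went with the label, since 11 of 12 on the array, DDX4, DAZL, KIT and PIWIL1 among them, were above background on all arrays. That bar is low, since 7 of 11 fibroblast and mesenchyme markers also passed it. Of 11 germ cell markers tested, 2 fell on withdrawal at an adjusted p under 0.05, LIN28A (log2 change -0.98) and DAZL (-0.27). TDRD7 rose (0.23), and 8 were not called, where 6.83% of all tested genes were called higher and 5.99% lower. On replacement LIN28A alone was called, and it rose (0.80), as did 4.02% of all tested genes. The FGF feedback genes DUSP6, SPRY2 and IL17RD fell on withdrawal (log2 changes of -1.91, -1.55 and -2.28) and rose on replacement (2.21, 2.07 and 2.77). The paper had reported these genes from the same arrays, so their changes are a description and no independent check of the treatment. Its functional categories of bFGF-regulated genes also name EOMES, OTX2, SFRP2 and SPRY1.

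On withdrawal of bFGF, TBXT and TBX6 were lower and EOMES was higher, in each case on all 3 -bFGF arrays. TBXT dropped to 52.9% and TBX6 to 65.1% of their RAW means, whereas EOMES stood at 175% of its own. The 3 organizer genes were lower on average, but their arrays overlapped with the RAW arrays. Over all tested genes, all -bFGF arrays were above all RAW arrays for 20.4% and below them for 15.0%.

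TBXT had intensities of 234, 251 and 211 on the RAW arrays and 123, 113 and 131 on the -bFGF arrays. The lowest RAW array was well above the highest -bFGF array. The log2 change was -0.92 (SE 0.133, n = 3 arrays per group), with a 95% interval of -1.20 to -0.63. TBX6 read 288, 269 and 209 on the RAW arrays and 196, 168 and 135 on the -bFGF arrays. The groups did not overlap, although RAW replicate 3 was close to -bFGF replicate 1. Its log2 change was -0.62 (SE 0.158). EOMES moved the other way, from 619, 597 and 841 on the RAW arrays to 1226, 1259.6 and 1116 on the -bFGF arrays. Even the high RAW replicate 3 was below every -bFGF array, and the log2 change was 0.82 (SE 0.124, 95% interval 0.56 to 1.09).

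ADMP intensities were 552, 509.7 and 344 in RAW and 345, 454 and 401 in -bFGF cells. RAW replicate 3 was at the level of the -bFGF arrays and the remaining RAW arrays were above all of them, so the groups overlapped (log2 change -0.21, SE 0.154). GSC read 76.8, 110.1 and 124 in RAW and 66.5, 67.8 and 83.8 in -bFGF cells, with overlap between 1 array of each group (log2 change -0.49, SE 0.282). CHRD read 125, 164 and 116 in RAW and 99.2, 131 and 101 in -bFGF cells, again with overlap (log2 change -0.29, SE 0.250). The 95% intervals of these 3 changes all included 0, and those of GSC and CHRD were wide, from -1.10 to 0.12 and from -0.82 to 0.25.

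**Figure D1:**
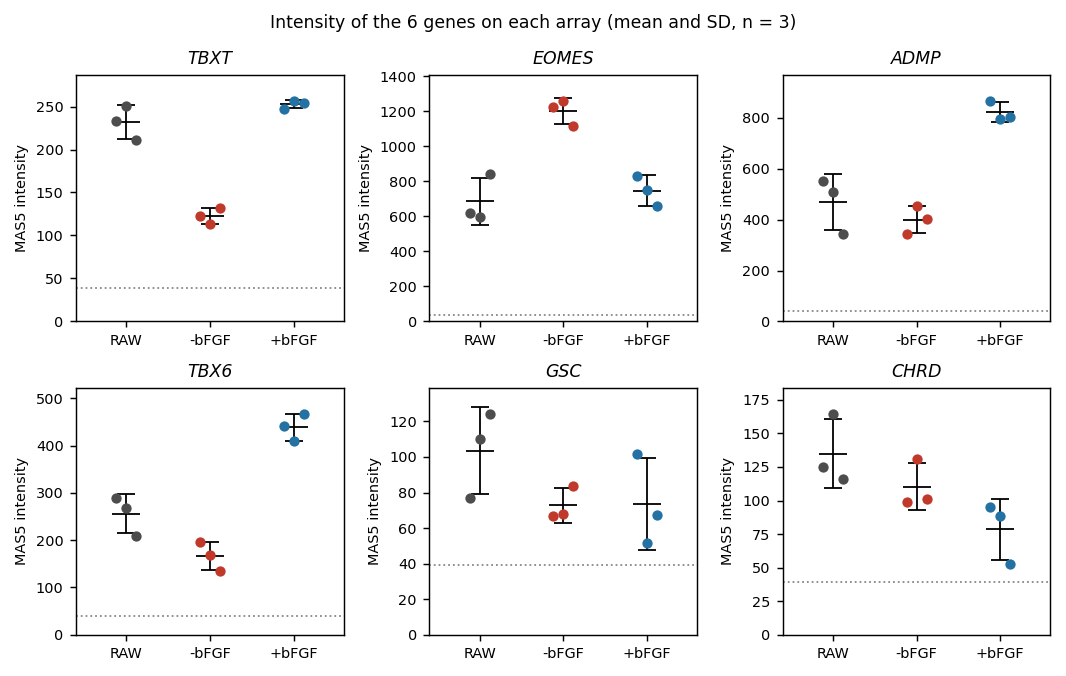
MAS5 intensity (linear, each y axis from 0) of the 6 genes on each array of the RAW, -bFGF and +bFGF groups; points are arrays, bars the mean and SD (n = 3), and the dotted line the highest viral-probe background of any array, 39.4. TBXT falls and returns, EOMES mirrors it, ADMP and TBX6 end above their RAW arrays, and GSC and CHRD lie near the background.

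In the fit over all 19220 tested probe sets, TBXT and TBX6 lay below and EOMES above RAW past the threshold used for all genes (an adjusted p under 0.05), that is 3 of 6 genes. The same rule called 5.99% of all 9125 tested genes lower and 6.83% higher on withdrawal. Since the genes were picked with this comparison known, the count is no test of them and the share is given for scale only. TBX6 no longer met the threshold when RAW replicate 1 or 2 or -bFGF replicate 2 or 3 was left out (log2 change between -0.76 and -0.48 over the arrays left out), while ADMP met it, on the lower side, without RAW replicate 3, at -0.42. Replicate arrays of these genes were not equally tight. The residual SD of log2 intensity was 0.095 for TBXT, 0.19 for EOMES, 0.22 for TBX6, 0.24 for ADMP, 0.33 for CHRD and 0.37 for GSC, against a median of 0.139 over the tested probe sets.

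When bFGF was returned for 24 h, TBXT, TBX6 and ADMP were higher and EOMES was lower than on the -bFGF arrays, with no overlap between the groups for any of the 4 (11.8% of all tested genes had every +bFGF array above, and 15.4% below, every -bFGF array). TBX6 showed the largest log2 difference of the 6 genes. CHRD was lower still after the return, and the GSC means were nearly equal. This comparison uses the same -bFGF arrays as the withdrawal comparison, so a stray -bFGF array would enter both with opposite sign.

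TBXT rose to 248, 256 and 254, a spread of 4.48 (SD) around a mean of 253, and the log2 change from -bFGF was 1.04 (SE 0.133). These arrays reached the top of the RAW range and 2 of them passed it. TBX6 reached 442, 409 and 466, a log2 change of 1.42 (SE 0.158) that corresponds to a 2.67-fold difference (95% interval 2.11 to 3.38). Each +bFGF array was above every RAW array as well as every -bFGF array. ADMP, whose arrays had overlapped on withdrawal, reached 866, 795 and 805 (log2 change 1.05, SE 0.154). Its lowest +bFGF array was above its highest RAW array. EOMES came down to 833, 749 and 659, all under the lowest -bFGF array and within its RAW range (log2 change -0.69, SE 0.124).

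GSC read 102, 51.4 and 67.6 after the return. The first of these arrays was above the -bFGF range, the second below it, and the log2 change was -0.03 (SE 0.282) with an interval of -0.64 to 0.57. CHRD read 95.02, 88.1 and 52.6, all below its lowest -bFGF array. Its log2 change was -0.53 (SE 0.250), and the interval, -1.06 to 0.01, just reached 0. With the same fit over all probe sets, 4 of 6 genes met the threshold on replacement, 3 of them higher and 1 lower, where 4.02% of all tested genes were called higher and 4.21% lower. These genes too were picked with this comparison known, so the count is a description, and it stayed at 4 whichever array was left out.

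**Figure D2:**
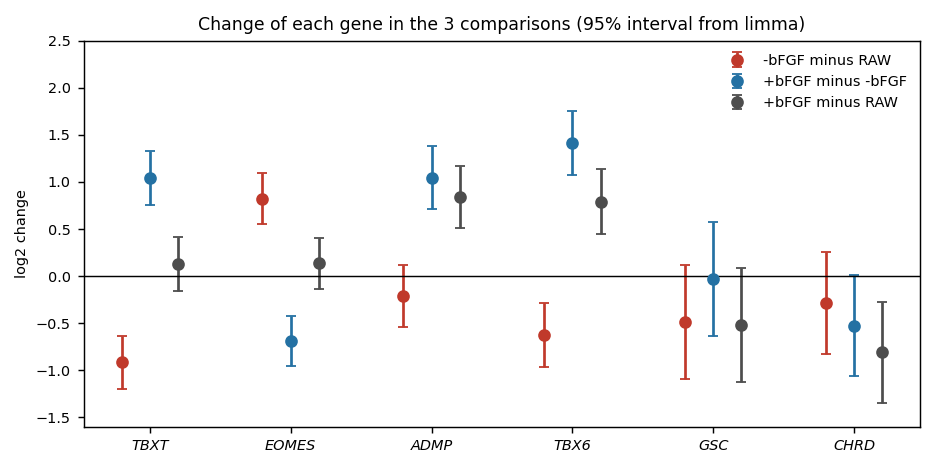
Log2 change (y axis) of each of the 6 genes in the 3 comparisons, with the 95% interval from limma (n = 3 arrays per group). TBXT and EOMES point in opposite directions on withdrawal and replacement and come back near 0 in the net comparison, whereas ADMP (0.84) and TBX6 (0.79) end above 0.

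The net comparison, +bFGF against RAW, asks whether the level after a day without and a day with bFGF differed from the starting level. It uses the same arrays as the other comparisons and equals the sum of their changes, which were known when the genes were picked, so it is given here as a description too. ADMP and TBX6 stood above their starting level, whereas the arrays of TBXT and EOMES overlapped with the RAW arrays. Each +bFGF array of ADMP and TBX6 was above every RAW array, as for 13.0% of all tested genes. The log2 change of ADMP was 0.84 (SE 0.154, 1.79-fold, 95% interval 1.42 to 2.25) and that of TBX6 was 0.79 (SE 0.158, 1.73-fold, 1.37 to 2.19). These 2 of the 6 genes were past the threshold used for all genes, where 1.62% of all tested genes were called higher and 1.85% lower. In linear means the +bFGF cells stood at 175% of RAW for ADMP and 172% for TBX6.

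TBXT stood at 109% of its RAW mean, a log2 change of 0.13 (SE 0.133, interval -0.16 to 0.41), and EOMES also at 109%, with a log2 change of 0.13 (SE 0.124, interval -0.13 to 0.40). The upper bounds of these intervals correspond to a 1.33-fold higher level for TBXT and a 1.32-fold higher level for EOMES, so the data leave room for differences up to that size. CHRD was the lowest of the 6 against its start, at 58.2% of RAW, with all 3 +bFGF arrays below all 3 RAW arrays, as for 12.1% of all tested genes. Its log2 change of -0.81 (SE 0.250) missed the threshold. The published selection criteria are a lower bound of the 90% interval of the fold above 1.2 and a difference of the means above 50. The paper applied them to dChip values. On the MAS5 intensities, with an interval computed here, they called CHRD lower, as they did 1.48% of all tested genes. Whether dChip values of CHRD would meet them was not tested. GSC stood at 71.0% of RAW, with overlapping arrays and a log2 change of -0.52 (SE 0.282).

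TBX6 no longer met the threshold without RAW replicate 2 or 3 or +bFGF replicate 3 (log2 change between 0.65 and 0.89 over the arrays left out), and neither gene met it when the variance was not allowed to follow intensity. The log2 change of ADMP lay between 0.63 and 0.97 whichever array was left out, and the lower value came without RAW replicate 3, on which ADMP was lowest.

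**Figure D3:**
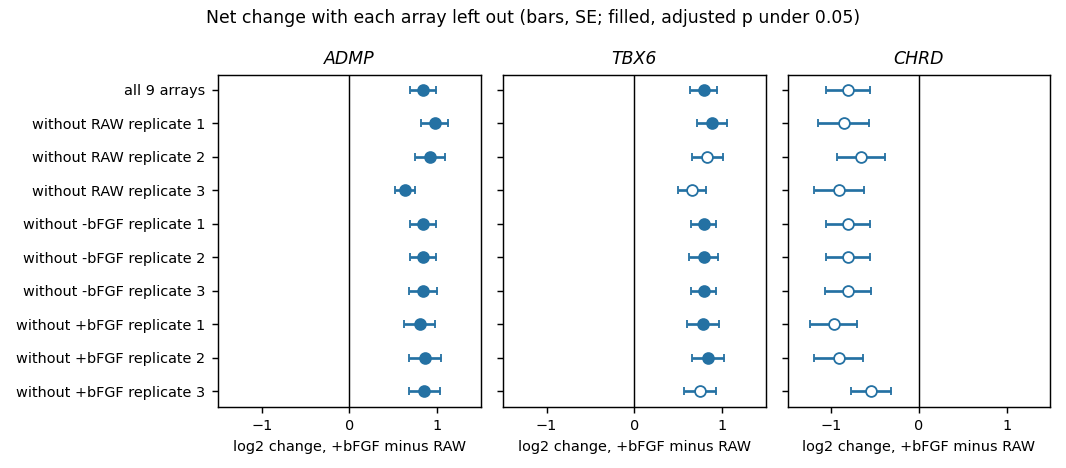
Net log2 change (+bFGF minus RAW, x axis; bars, SE) of ADMP, TBX6 and CHRD with all 9 arrays and with each array left out; filled points have an adjusted p under 0.05, the threshold used for all genes, shown as a description. ADMP meets it in all 10 rows, TBX6 in 7 and CHRD in none, and no gene changes sign.

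The order of the group means therefore differed from gene to gene. For TBXT and TBX6 it was -bFGF, RAW and +bFGF, from low to high, where the upper pair overlapped for TBXT and did not for TBX6. ADMP had the same order, with the overlap at the lower pair. EOMES ran RAW, +bFGF and -bFGF, with overlap between the first pair. CHRD ran +bFGF, -bFGF and RAW, with overlap between the upper pair, and for GSC the order of the -bFGF and +bFGF means (72.7 and 73.6) could not be resolved.

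Time in culture lengthened with each step, so its part cannot be told apart from that of bFGF, and in bulk RNA fewer cells of a kind and less RNA per cell cannot be told apart. Some markers of fibroblast and mesenchyme differed between the groups as well. Of 11 on the array, 7 were above background on all arrays. All 11 together summed to 8176 to 9219 in RAW, 6148 to 6389 in -bFGF and 6920.0 to 8084 in +bFGF cells. Of 7 tested, 4 fell on withdrawal, COL1A2, a fibrillar collagen chain, among them (log2 change -3.18, mean intensity 2385 in RAW and 263 in -bFGF), and COL1A2 alone rose on replacement. COL3A1, another collagen chain, had a mean of 4235 in RAW and 4418 in -bFGF cells. It was not called in either comparison (log2 changes of 0.06 and -0.15). Of all tested genes, 5.99% were called lower on withdrawal and 4.02% higher on replacement. The 7 endothelial markers summed to 422 to 463, 278 to 329 and 353 to 414 in the same order, with 3 above background. Only 2 of them were tested. EGFL7 had means of 188, 87.2 and 148 and was called lower, then higher. PECAM1, with means of 99.2, 102 and 92.8, was not called. None of 6 erythroid and 1 of 6 leukocyte markers was above background on all arrays. The log2 ratio of the 3′ to the 5′ actin probe sets, a sign of RNA quality, was 0.62 to 0.73 in RAW, 0.70 to 0.78 in -bFGF and 0.33 to 0.59 in +bFGF cells. The same ratio for GAPDH was -0.07 to -0.05 in RAW, -0.18 to -0.14 in -bFGF and -0.16 to -0.08 in +bFGF cells. The part of these differences in the changes of the 6 genes was not tested.

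Other genes of the same biology were read from lists, which had been drawn up with earlier results of these data known. Most genes named below were picked for the largest called changes, so their adjusted p-values are descriptions and no independent tests. For scale, the shares of all tested genes called higher and lower were 6.83% and 5.99% on withdrawal, 4.02% and 4.21% on replacement, and 1.62% and 1.85% net. Of 13 other T-box genes on the array, only MGA passed the filter on low values, and it was not called in any comparison (log2 change -0.09 on withdrawal). The brightest probe set of each of the remaining 12 had a median between 2.09 and 57.0 over the arrays and never exceeded 76.6. TBX19 alone of these 12 was above the viral background on all 9 arrays.

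Among organizer and node genes outside the 6, 15 of 23 on the array were tested, and withdrawal moved them in both directions: 4 rose and 4 fell. Their median change was -0.02, against 0.03 over all genes, of which 6.83% were called higher and 5.99% lower. HESX1, a homeobox repressor of the anterior neural plate, fell from 834, 911 and 1045 to 116, 164 and 114 and rose to 653, 677 and 693 after the return (log2 changes of -2.84 and 2.38, SE 0.136). The -bFGF arrays were far below all others. OTX2, a homeobox factor of the head organizer and forebrain, read 4981, 5160.4 and 5034 in RAW, 2245, 2539.6 and 2653 in -bFGF and 4856, 3988 and 4202 in +bFGF cells. SFRP1, a secreted WNT antagonist, fell by 1.40 on withdrawal (SE 0.118) and rose by 0.73 on replacement. The net change of SFRP1 was -0.67 (adjusted p = 0.00856), so its return was partial.

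FST, the secreted activin and BMP antagonist follistatin, took the direction of EOMES. It read 290, 281 and 261 in RAW, 428, 379 and 439 in -bFGF and 145, 154 and 182 in +bFGF cells. It rose by 0.58 on withdrawal (SE 0.125, adjusted p = 0.00953), fell by 1.38 on replacement, and ended below every RAW array (net -0.80, adjusted p = 0.00482). A second probe set of FST moved by 1.13 and -1.63, and its net change of -0.50 was not called (adjusted p = 0.136). BMP7, a BMP ligand, rose by 0.41 on withdrawal and fell by 0.56 on replacement, but the rise was lost when any RAW or -bFGF array was left out. GNOT2, a homeobox gene of the node, rose by 0.46 on withdrawal, and the smaller rise of FRZB, a WNT antagonist (0.25), was lost without any of these arrays and without +bFGF replicate 2. SFRP2 fell by 0.58. On replacement 3 of the 15 genes rose and 2 fell, and in the net comparison 3 fell. Over all tested genes, 4.02% were called higher and 4.21% lower on replacement, and 1.85% lower net.

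**Figure D4:**
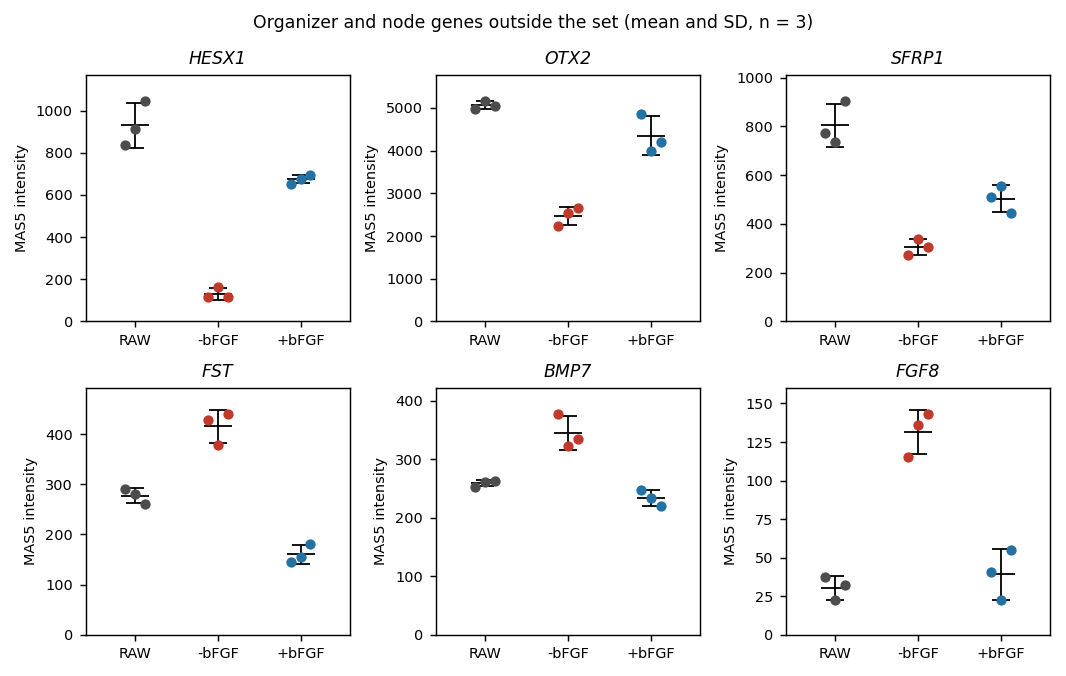
MAS5 intensity (linear, each y axis from 0) of 6 organizer and node genes outside the set on each array; points are arrays, bars the mean and SD (n = 3). HESX1, OTX2 and SFRP1 fall without bFGF and FST, BMP7 and FGF8 rise, and FGF8 was below the filter on low values and not tested in the main fit.

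FGF8, an FGF ligand of the streak, was below the filter and is singled out here after its values were seen. It read 37.6, 22.2 and 32.0 in RAW, 116, 136 and 143 in -bFGF and 40.4, 22.3 and 55.0 in +bFGF cells. All -bFGF arrays were above the viral background, and 3 of the other 6 arrays were. With no filter, the log2 change of FGF8 was 2.13 on withdrawal and -1.83 on replacement (SE 0.396 for each). Since FGF8 was picked by these values, they are a description and no p-value is given.

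Of 36 primitive streak and mesoderm genes on the array, 12 were tested. On withdrawal 1 rose and 2 fell, where 6.83% of all tested genes were called higher and 5.99% lower. Their median change was -0.01. CYP26A1, which degrades retinoic acid, fell by 0.74 and rose by 0.49 on replacement, and SNAI1, a repressor of epithelial genes, fell by 0.55 and rose by 0.49. WNT5B rose by 0.53 on withdrawal, and WNT5A, a related ligand, rose by 0.90 on replacement. The WNT5B call was lost when RAW replicate 1 or 2 or any -bFGF array was left out. GATA5, a zinc-finger factor of endoderm and heart, fell by 0.74 on replacement, to 152, 101 and 155 from 207, 228 and 236, and AXIN2, a WNT feedback gene, fell by 0.62. The net change of GATA5 was -0.96 (adjusted p = 0.0145, lost without RAW replicate 2). The GATA5 call on replacement ended without -bFGF replicate 2 or 3 or +bFGF replicate 2, and that of AXIN2 when the array left out was replicate 1 or 2 of -bFGF, or replicate 2 or 3 of +bFGF. Second, dimmer probe sets of SNAI1, WNT5A, GATA5 and AXIN2 changed in the same direction in the comparisons named and were not called there, while that of GATA5 was called in the net comparison (-0.98, adjusted p = 0.0420).

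Among BMP ligands, extracellular modulators, receptors, SMADs and targets, the setting in which CHRD and ADMP act, 23 of 31 on the array were tested. On withdrawal 2 rose (FST and BMP7) and 4 fell, with a median of -0.11. Over all tested genes 6.83% were called higher and 5.99% lower. The 4 listed genes that fell are BMP-responsive in many tissues: ID3 by 0.66, MSX1 by 0.47, SMAD6 by 0.40 and ID1 by 0.37 on the log2 scale. ID2, ID4 and SMAD7 of the same list were not called (log2 changes of -0.11, -0.14 and 0.11). A dimmer probe set of SMAD7 changed the other way, by -0.63, and was not called in the fit with no filter. The SMAD6 call was lost without RAW replicate 2 or 3, -bFGF replicate 1 or 2 or +bFGF replicate 2. On replacement 3 rose, SMAD6 by 0.59, MSX1 by 0.40 and BAMBI, a decoy receptor, by 0.33, while FST and BMP7 fell. The MSX1 call there ended without any 1 of the -bFGF arrays or +bFGF replicate 1, and that of BAMBI without -bFGF replicate 2. In the net comparison 3 fell. Of all tested genes, 4.02% were called higher and 4.21% lower on replacement, and 1.85% lower net.

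The list of FGF feedback genes held inhibitors of the pathway and also the transcription factors ETV1, ETV4 and ETV5. Its genes all took 1 direction where they were called. Of 10 tested, 7 fell on withdrawal (median -0.89), 8 rose on replacement (median 1.17), and 6 rose in the net comparison (median 0.31). Over all tested genes, 5.99% were called lower on withdrawal, 4.02% higher on replacement and 1.62% higher net. SPRY1 went from 789.6, 687 and 665 to 229, 199.9 and 214 and then to 1009, 1121 and 973. SPRY2 rose by 0.51 net (adjusted p = 0.00122), IL17RD by 0.49 (0.0201) and DUSP6 by 0.30 (0.00856). The IL17RD call was lost without any 1 of the RAW arrays or +bFGF replicate 2 and on its second probe set (adjusted p = 0.0520), and that of SPRY1 (net 0.54) without RAW or +bFGF replicate 2. With no intensity trend, DUSP6 and IL17RD lost their net calls.

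**Figure D5:**
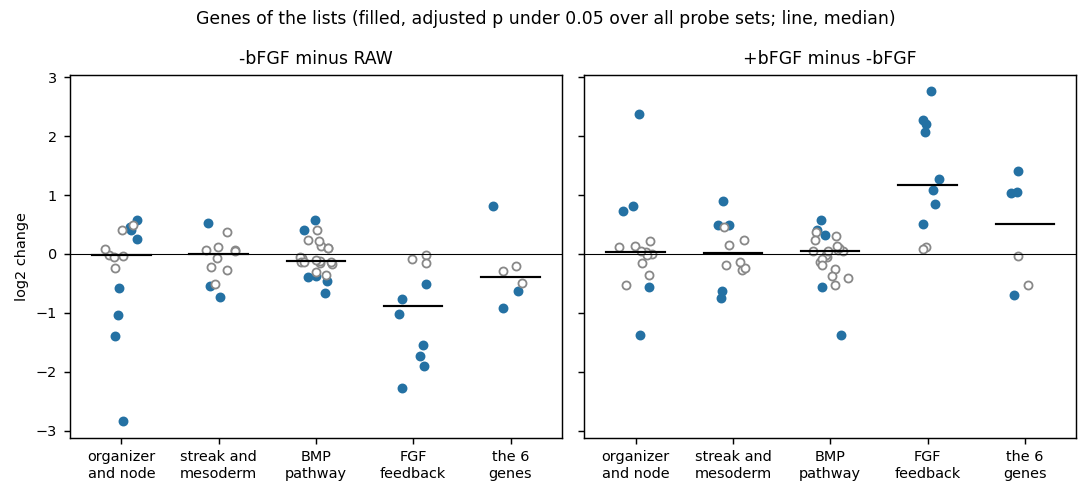
Log2 change (y axis) on withdrawal (left) and replacement (right) of the tested genes of 4 lists and of the 6 genes; each point is a gene on its brightest probe set, filled where the adjusted p over all tested probe sets is under 0.05, and the line is the median. FGF feedback genes have medians of -0.89 and 1.17, and the other lists have medians near 0. The 6 genes and the lists were chosen with earlier results of these data known, so filled points are a description and no test.

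Over the 9 arrays, the genes whose log2 intensity followed TBXT most closely were PPP1R3B (Pearson r = 0.991), CCDC186 (0.990), SDR16C5 (0.988), DUSP6 (0.985) and ING5 (0.985). For EOMES they were SPRYD7 (0.967), FAM132A (0.961), MYO3AL (0.956), TMEM18 (0.955) and FAM196A (0.947). The 9 points fall into 3 groups and share arrays, so these are descriptions of 1 pattern over 3 conditions. Sizes of change differed widely under a high r, since SDR16C5 changed by -1.51 on withdrawal and ING5 by -0.64, and FAM132A by 1.19 where SPRYD7 changed by 0.19. By Spearman's rank correlation, 0 of the top 5 genes were shared for TBXT and 3 for EOMES. Ties bear on the count for TBXT through PPP1R3B only. It had the same Spearman value, 0.95, as the genes ranked 3 to 5, and was ranked 10 because ties were ordered by gene name. SDR16C5 (0.90), CCDC186 (0.88), DUSP6 (0.88) and ING5 (0.77) ranked 40, 46, 47 and 231 by Spearman.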

How the data were processed

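The authors hybridised RNA of 9 PGC samples to Affymetrix Chicken Genome arrays, and the deposited table holds 1 linear MAS5 intensity per probe set and array, scaled by the authors to a trimmed mean of about 500 (here 499.9 to 500.0 with 2% of values trimmed at each end). The MAS5 version is not given in the sources used here. The published comparisons used dChip; their values are not used here. Samples were grouped by their labels.

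Of 38439 probe sets that are not controls, 19220 with a mean log2 intensity at or above the median (72.4 in intensity) were tested. Intensities were taken to log2 without an offset, and limma 3.58.1 in R 4.3.3 was fitted to all 9 arrays with 1 mean per group and a variance that follows intensity. Two-sided tests were adjusted by Benjamini-Hochberg over the 19220 probe sets within each comparison, with calls at an adjusted p under 0.05. Where a gene has several probe sets the brightest was used, giving 9125 tested genes, and only the 27178 probe sets with 1 symbol were named. Code was tested on simulated data.

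The 6 genes and all lists were chosen with earlier results of these data known. No p-value is therefore given for the 6 genes, and those of listed genes are descriptions. Named genes are the 6, up to 4 called genes per list, direction and comparison (withdrawal and replacement) with the largest change, the 5 genes most correlated with TBXT and with EOMES, and DUSP6, SPRY2 and IL17RD; marker genes and FGF8 were added. Symbols came from the supplied array annotation, and the gene IDs of all 6 carry the same symbol in the RefSeq table. No sequence or coordinate was used. The number of arrays, 3 per group, limits the precision. Alternatives were other filters, quantile normalization, centring, an offset, no variance trend, 2 groups only, a replicate block, the published criteria and each array left out.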

Additional observations from a re-analysis of the deposited data

How the results depend on the processing

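Withdrawal, replacement and net log2 changes of the 6 genes kept their sign where they were called, under all alternatives, and GSC on replacement, which was not called, ran from -0.29 to 0.20. An offset of 50 before the logarithm moved TBXT to -0.71 on withdrawal and 0.81 on replacement, and TBX6 to 1.19 on replacement. With a 75th percentile filter, which leaves only ADMP and EOMES of the 6 in the test, 0 genes were called lower on withdrawal (2 in the main setting), 1 higher on replacement (3) and 1 higher net (2). With no intensity trend, 1 was lower on withdrawal and 0 were higher net. The published criteria, applied to the MAS5 intensities, called 1 of the 6 (CHRD) lower net, against 0. Leaving out 1 array gave 1 to 3 called lower on withdrawal and 1 to 2 called higher net.

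Over the 5 lists, 5 genes rose on withdrawal, against 3 with no filter, 2 with the 75th percentile filter and 2 to 6 with 1 array left out, the low end without RAW replicate 1 or 2 or any -bFGF array. On replacement 4 fell, against 1 with the 75th percentile filter and 2 to 5 with 1 array left out (2 without -bFGF or +bFGF replicate 2). Net, 6 rose, against 3 with no intensity trend and 4 to 6 with 1 array left out, and 6 fell, against 3 to 7 with 1 array left out (3 without RAW replicate 2). With no filter BMP7, FRZB, WNT5B and SMAD6 lost their calls on withdrawal and GATA5 and AXIN2 on replacement, and with no intensity trend FRZB and SMAD6 lost theirs on withdrawal and GATA5 and MSX1 on replacement, with ID3, DUSP6 and IL17RD losing net calls. Spearman's correlation kept 0 of 5 genes most like TBXT and 3 of 5 most like EOMES. Of those 5 for TBXT, PPP1R3B alone tied with genes of the Spearman top 5. The cause of these differences was not tested.

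Whether same-numbered samples share a culture is not stated. Deviations of same-numbered arrays correlated between -0.21 and 0.06, and those of other pairs between -0.15 and 0.17. With 3 arrays per group these values cannot settle whether the samples were paired. With the replicate number as a block, 2 listed genes rose on withdrawal in place of 5, SMAD6 on withdrawal and GATA5 and MSX1 on replacement also lost their calls, and the same members of the 6 genes met the threshold. GSC and CHRD, nearest to background, had the widest errors.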
